A study of Homo sapiens with 6 samples.

Results

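Isoform usage after CBX8 knockdown in A549, an established cell line from a human lung adenocarcinoma, was described as the share that each RefSeq transcript took of the summed counts of its gene. A gene was a member when it had at least 2 RefSeq accessions and at least 100 summed counts in each of the 6 libraries, after rows that repeat an accession had been added together. This held for 8156 of 28449 genes, with 40260 of 72693 accessions, and they carried 66.9% to 67.4% of each library's counts. All cells had been infected with a lentivirus to obtain stable lines. The 3 groups were control (a control short hairpin RNA), shCBX8-1 and shCBX8-2 (hairpins against CBX8), with 2 libraries each. Neither the meaning of the number after shCBX8 nor the use of separate cultures for the replicates is stated in the labels, and both knockdown groups are called hairpins here for short. P-values then measure the spread between these libraries, which may be technical. The question was whether the makeup of a gene's transcripts, and not its total, differed between the 4 knockdown and the 2 control libraries.

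A gene yields several transcripts through alternative promoters, alternative splicing of exons and alternative polyadenylation, and these can encode proteins that differ in domains or transcripts that encode no protein. CBX8 is a chromobox subunit of Polycomb repressive complex 1, which binds histone H3 trimethylated at lysine 27 and keeps genes silent. It acts on chromatin and is not a splicing factor.

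Library totals lay between 64197784 and 67169537 counts. CBX8, which has 1 accession and is therefore no member, stood at 25.2 and 27.1 CPM (counts scaled to a common library total) in the control libraries, 7.91 and 7.75 in shCBX8-1, and 16.8 and 13.5 in shCBX8-2, so both knockdown groups lay below control and shCBX8-2 above shCBX8-1. Of the epithelial markers, KRT8 and KRT18 were abundant, and their list of 7 summed to 20183 to 27357 CPM. EPCAM was at 3.12 to 8.21 and the alveolar markers SFTPB and SFTPC were at or near 0. The 4 leukocyte markers summed to at most 2.31 CPM, with CD3E at 0 in every library, and the 3 endothelial markers to at most 5.40. The 4 fibroblast markers summed to 11.6 and 14.5 in the control and 5.26 to 9.02 in the knockdown libraries, mainly COL1A1, and their part in the results was not tested.

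Coding exons, or parts of them, that tell apart isoforms named below are printed first. Each was found by comparing the GENCODE 29 transcripts (GRCh38) linked to a pair of RefSeq accessions. The coding bases that 1 isoform of the pair holds and the other lacks are in capitals, with the 12 coding bases on either side in lower case, 5′ to 3′ on the gene's strand. All 6 stretches are whole codons long. Structures, starts, ends and lengths given here and below are those of the linked GENCODE transcripts. Models of the counted RefSeq transcripts were not at hand, and their ends may differ. In the linked transcripts, ends also lie apart in the pairs of CKAP5 (488 bases), BCR (2087), USP9X (3982) and MET (2044). Shifts of share there concern whole transcripts, not the printed stretch alone.
CKAP5 exon 36 of 44, 180 bases at chr11:46754888-46755067 on the minus strand, in NM_001008938 and not in NM_014756: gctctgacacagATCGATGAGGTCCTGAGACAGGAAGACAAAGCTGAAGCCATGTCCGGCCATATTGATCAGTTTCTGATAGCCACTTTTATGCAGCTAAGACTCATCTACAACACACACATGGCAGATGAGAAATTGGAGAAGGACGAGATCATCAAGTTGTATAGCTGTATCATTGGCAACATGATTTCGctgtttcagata
BCR exon 16 of 23, 132 bases at chr22:23295024-23295155 on the plus strand, in NM_004327 and not in NM_021574: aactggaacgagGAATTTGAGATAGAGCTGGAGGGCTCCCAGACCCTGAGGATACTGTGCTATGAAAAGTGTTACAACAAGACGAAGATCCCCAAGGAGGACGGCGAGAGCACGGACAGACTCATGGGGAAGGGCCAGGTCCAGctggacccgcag
KHDRBS1 exon 3 of 9, 117 bases at chr1:32031524-32031640 on the plus strand, in NM_006559 and not in NM_001271878: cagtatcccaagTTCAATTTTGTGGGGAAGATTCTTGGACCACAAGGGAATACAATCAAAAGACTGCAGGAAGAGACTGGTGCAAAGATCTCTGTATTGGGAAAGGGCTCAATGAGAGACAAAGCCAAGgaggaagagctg
USP9X exon 43 of 45, 48 of its bases at chrX:41229780-41229827 on the plus strand, in NM_001039590 and not in NM_001039591: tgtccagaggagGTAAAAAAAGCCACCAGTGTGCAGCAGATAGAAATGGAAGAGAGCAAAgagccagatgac
FOXM1 exon 6 of 9, 45 bases at chr12:2865355-2865399 on the minus strand, in NM_021953 and not in NM_001243088: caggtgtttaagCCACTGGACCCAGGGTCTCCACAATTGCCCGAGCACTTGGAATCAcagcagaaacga
MET exon 10 of 21, 54 of its bases at chr7:116759337-116759390 on the plus strand, in NM_001127500 and not in NM_000245: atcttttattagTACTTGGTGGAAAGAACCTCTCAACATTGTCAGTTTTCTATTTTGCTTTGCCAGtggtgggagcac

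Isoform makeup as a whole was about as different between libraries of the same group as between knockdown and control. The measure was the share that has to move between isoforms to turn 1 library's profile of a gene into another's, taken as the median over the 8156 genes. It was 9.55 percentage points between the 2 control libraries, 9.34 between the 2 shCBX8-1 libraries and 10.2 between the 2 shCBX8-2 libraries. The 8 pairs of a control and a knockdown library gave 9.73 to 10.6 points, and the 4 pairs of shCBX8-1 with shCBX8-2 libraries gave 10.1 to 10.6. Depth narrowed the spread, and at each depth the control-knockdown pairs overlapped the pairs within groups. In the 2750 genes with 100 or more but under 1000 counts in their lowest library, the medians were 12.1 to 14.5 within groups and 12.8 to 14.5 between control and knockdown. In the 260 genes with 20000 counts or more they were 3.27 to 3.59 within groups, 3.16 to 4.40 between control and knockdown and 3.63 to 4.13 between the hairpins.

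**Figure D1:**
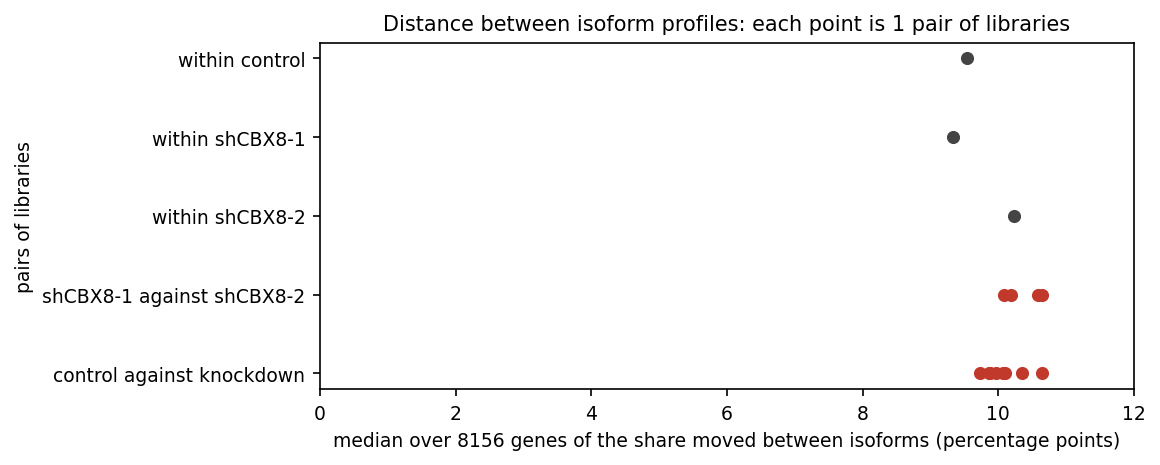
Median distance between isoform profiles (percentage points of share moved, x axis) for each of the 15 pairs of libraries, by kind of pair (y axis). The 3 pairs within groups lie at 9.34 to 10.2 points, and the control-knockdown pairs at 9.73 to 10.6 overlap them.

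Many isoforms were listed at 0 in some libraries and not in others. Of 26694 isoforms tested (mean share of at least 1% and mean count of at least 10, in 7368 genes), 8750 were at 0 in at least 1 library. Of these, 4355 took over 20% of their gene in another library, and 3076 did so in the other library of the same group. The counts are estimates that divide reads among overlapping transcripts, and an isoform listed at 0 may be one to which no reads were assigned.

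Against this spread, 23 of the 26694 isoforms changed between knockdown and control, 0.0862% of those tested (edgeR's diffSpliceDGE, Benjamini-Hochberg adjusted p under 0.05). Only 1 of them rose (0.00375%) and 22 fell (0.0824%), and 19 moved by at least 10 percentage points (0.0712%). At an unadjusted p under 0.05 there were 1452, or 5.44%. Of the 23, 15 were at 0 in all 4 knockdown libraries, 1 was at 0 in both controls, and 0 were above 0 in all 6 libraries. Of all 26694, 111 were at 0 in all 4 knockdown libraries and above 0 in both controls, and 106 the reverse. With a mean share of at least 20% in the other group there were 43 and 35. The split of higher to lower calls was also more even with other tools, at 538 to 640 (DESeq2) and 30 to 35 (limma's diffSplice). The groups did not overlap for 18 of the 23. Among all tested isoforms, groups that did not overlap numbered 1552 higher (5.81%) and 1894 lower (7.1%), 3446 in all (12.9%). The count of calls was unstable: without 1 control library it was 40 or 43, without 1 shCBX8-1 library 12 or 10, and without 1 shCBX8-2 library 32 or 35.

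The isoform that rose belonged to SMC2, which encodes a core subunit of condensin, the complex that compacts mitotic chromosomes (chr9:104088263-104141419). NM_001042551 was at 0 in both control libraries, 50.0% and 48.5% in shCBX8-1, and 37.9% and 32.4% in shCBX8-2. The limit that a count of 0 allows over both control libraries is 0.0328% of SMC2's counts, covering counting error only, as do all such limits here. All 4 knockdown libraries thus lay far above control, with a knockdown mean of 42.2% ± 8.46 (SD, n = 4). The shift had an adjusted p of 0.00677 (edgeR) and was called in 5 of the 6 fits that left out 1 library (adjusted p = 0.0534 without control replicate 2, edgeR). The shares of NM_006444 went from 60.3% and 76.8% to 37.7% to 51.2%. GENCODE links both accessions to the same transcript, so their difference in structure was not analysed here.

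The loss with the smallest p was in SLC45A4, a solute carrier gene. NM_001080431 took 72.4% and 70.2% of its counts in the control libraries and 0 in all 4 knockdown libraries, where a count of 0 allows up to 0.0299%. NM_001286646, which starts 25655 bases away from it with a first exon of its own, took 24.9% and 27.1% in control and 95.7%, 94.8%, 93.5% and 94.5% in the knockdown libraries. The leading transcript was thus replaced in each of them, and the loss of NM_001080431 had an adjusted p of 3.07e-06 (edgeR), which stayed between 0.000459 and 0.00643 whichever library was left out. Among the 13 isoforms that the rule named for knockdown against control, it was the sole one called in all 6 of these fits. The gene-level test for SLC45A4 gave an adjusted p of 2.45e-06 (edgeR).

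STAT4 and ZNF827 showed complete exchanges, at low counts. STAT4 encodes a transcription factor that signals downstream of interleukin 12 (chr2:191029576-191151596), and had 345 to 778 counts per library. Its NM_003151 was at 100% in both controls and 0 in all 4 knockdown libraries, where NM_001243835 was at 100% instead. These transcripts differ in their first exons, whose starts lie 330 bases apart, and have the same coding exons. ZNF827, a zinc finger gene (chr4:145757627-145938823) with 458 to 692 counts, went in the same way from NM_178835 to NM_001306215, which has 3243 coding bases in place of 3231. The ends of these ZNF827 transcripts lie 3111 bases apart, and the lost one is the shorter, at 4197 against 7463 bases. The adjusted p was 0.0365 for the isoform lost in each gene (edgeR), and neither was called in any fit that left out 1 library (adjusted p of 0.0977 to 0.196 for STAT4 and 0.0977 to 0.199 for ZNF827, edgeR). At gene level both were called in all 6 such fits.

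Minor isoforms were lost in CKAP5, BCR and CORO1C, which had 9997 to 12249, 4618 to 5524 and 10876 to 14744 counts per library. CKAP5 encodes a microtubule polymerase of the mitotic spindle (chr11:46743048-46846280). Its NM_014756, which lacks the 180-base exon printed above, took 12.7% and 27.8% in the controls, 0.532% and 0.0953% in shCBX8-1 and 0 in shCBX8-2. The form with the exon took 99.5% or more in all 4 knockdown libraries (difference of NM_014756 −20.1 points, adjusted p = 0.0468, edgeR). BCR, a GTPase regulator known as the fusion partner of ABL1 (chr22:23180509-23318037), lost NM_021574, the form without the 132-base exon, from 10.3% and 16.9% to 0 in all 4 (adjusted p = 0.0162, edgeR). Neither isoform was called once any 1 library was left out (adjusted p of 0.0953 to 0.183 for CKAP5 and 0.0605 to 0.102 for BCR, edgeR), whereas both genes were called at gene level in all 6 of those fits.

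CORO1C, which encodes the actin-binding protein coronin 1C (chr12:108645109-108731518), lost NM_001276471. That transcript has a first exon of its own, an end 1458 bases from that of NM_014325, and the same coding exons as NM_014325. It took 17.9% and 17.3% in control, 0.0170% in shCBX8-2 replicate 2 and 0 in the other knockdown libraries (adjusted p = 0.0322, edgeR). The call was lost without either control or either shCBX8-1 library, with adjusted p up to 0.173 (edgeR).

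The other losses chosen by the rule for named isoforms had the same form, with 0 in all 4 knockdown libraries. AGO1, an Argonaute protein of the RNA interference machinery, lost NM_001317122 from 24.9% and 29.5% (adjusted p = 0.00978, edgeR), and its other tested isoform, NM_012199, was at 100% in each knockdown library. ACADM, the mitochondrial medium-chain acyl-CoA dehydrogenase, lost NM_001127328 from 19.7% and 27.0% (adjusted p = 0.00737, edgeR). SACM1L, a phosphoinositide phosphatase of the endoplasmic reticulum, lost NM_001319073 from 16.2% and 37.5% (adjusted p = 0.00737, edgeR). ARIH2, a ubiquitin ligase, lost NM_001349217 from 29.4% and 26.2% (adjusted p = 0.0365, edgeR). The zinc finger genes ZNF704 and ZNF84 lost NM_001033723 from 52.6% and 47.4%, and NM_001127372 from 34.2% and 27.3% (adjusted p = 0.00759 for each, edgeR). Of these 6, the number of leave-one-out fits with a call was 4 for SACM1L, 2 each for AGO1, ACADM, ZNF704 and ZNF84, and 0 for ARIH2. All were lost without either shCBX8-1 library.

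**Figure D2:**
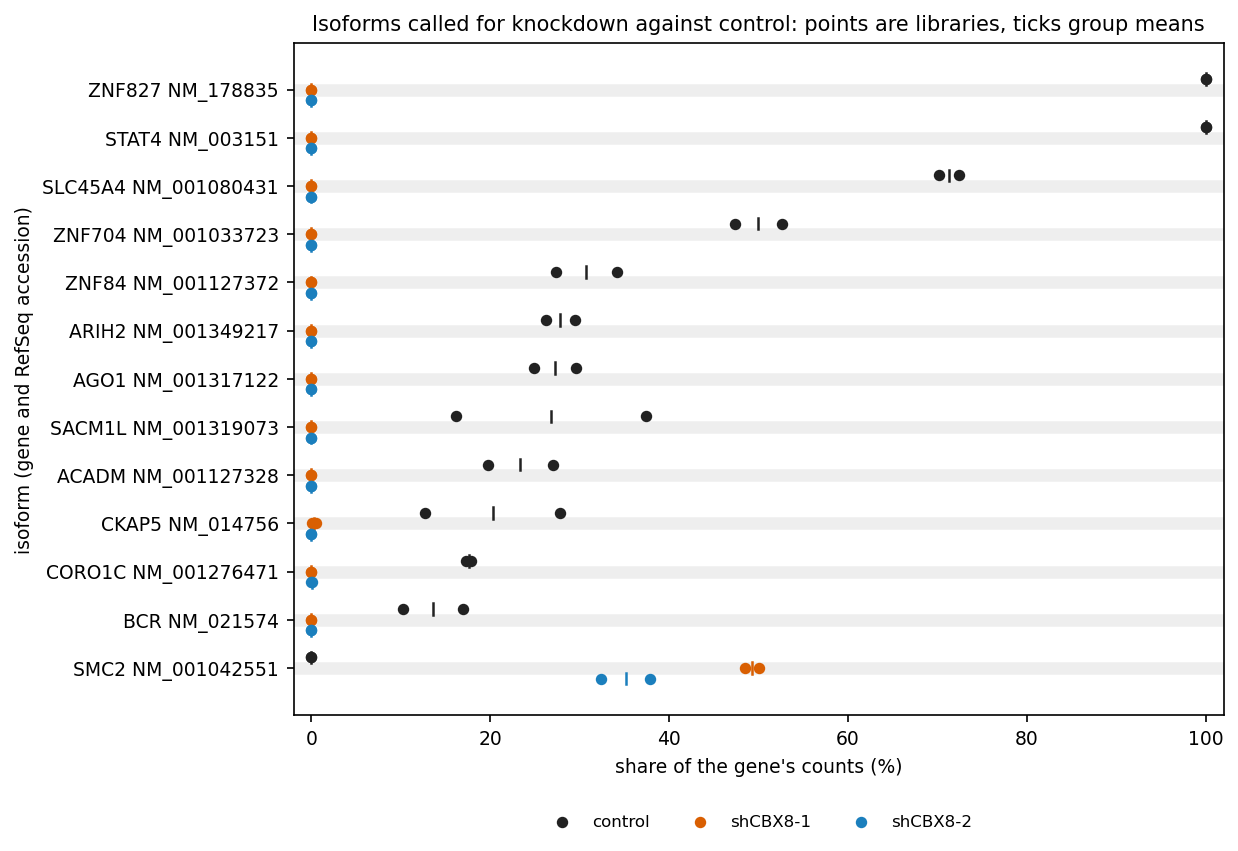
Share of the gene's counts (%, x axis) for the 13 isoforms named by the rule for knockdown against control (y axis), with 1 point per library and a tick at each group's mean. SMC2 NM_001042551 lies at 0 in both controls, and the other 12 lie at or near 0 in all 4 knockdown libraries.

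The structures of the exchanged transcripts were of several kinds. In 10 of the 23 genes with a called isoform, that isoform and the one moving most the other way had separate GENCODE links. Their coding exons were the same in 3 and differed in 7, and their first exons did not overlap in 3. Their ends lay 488 to 3111 bases apart in ACADM, BCR, CKAP5, CORO1C, PITPNB, SACM1L and ZNF827. In each of these genes the GENCODE transcript linked to the lost isoform was the shorter. The ends of the RefSeq transcripts were not compared, and no background over all pairs of isoforms was taken. A trend in length was thus not tested. The ends lay at most 72 bases apart in AURKA, SLC45A4 and STAT4. At gene level, where all isoforms of a gene are tested together, 130 of 7368 genes were called (1.76%; edgeR, Benjamini-Hochberg adjusted p under 0.05), 97 of them with an isoform that moved by at least 10 points. At an unadjusted p under 0.05 there were 888 genes (12.1%). Without 1 library the number of genes called was 176 to 288. The median over tested genes of the largest shift between knockdown and control means was 8.11 points.

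Of the Polycomb subunits fixed as a list, 3 of 24 tested genes were called (12.5%, against 1.76% of all tested genes): CBX7, PCGF2 and PHC2. In that list 5 genes (20.8%) had an unadjusted p under 0.05, against 12.1% of all tested genes (edgeR). CBX7 is another chromobox subunit of the complex and had 581 to 892 counts. Its NM_001346743 took 46.3% and 71.9% in control. In shCBX8-1 it took 37.7% and 18.8%, and in shCBX8-2 14.2% and 36.8%, while NM_001346744 was at 0 in both controls and between 5.34% and 46.0% in the knockdown libraries (gene adjusted p = 0.0186, edgeR). All knockdown values of NM_001346743 lay below control, with a wide spread in both groups. No isoform of the 3 genes passed by itself.

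PCGF2, a RING-domain partner of the catalytic subunit, had 3152 to 3953 counts. Its NM_007144 took 10.5% and 9.06% in the controls, 99.8% and 99.7% in shCBX8-1, and 21.9% and 95.9% in shCBX8-2 (gene adjusted p = 0.0254, edgeR). The shCBX8-2 libraries thus lay apart from each other, with replicate 1 close to control. PHC2, a Polyhomeotic subunit, had NM_004427 at 98.0% and 96.5% in the controls, 68.1% and 87.5% in shCBX8-1, and 94.2% and 94.4% in shCBX8-2 (gene adjusted p = 0.0103, edgeR). CBX7 and PCGF2 were called in 2 of the 6 leave-one-out fits, those without a shCBX8-2 library (adjusted p of 0.0159 to 0.126 and 0.000281 to 0.160 over the 6 fits, edgeR). PHC2 was lost without either control library (adjusted p up to 0.0835, edgeR). The histone chaperone RBBP4 was not called (adjusted p = 0.0687, edgeR), with NM_001135255 at 19.0% and 14.3% in control and 1.51% to 5.15% in the knockdown libraries.

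Among RNA processing factors, the genes called were 1 of 19 SR and SR-like factors (SRRM1), 1 of 37 hnRNPs and other regulators (KHDRBS1), 0 of 26 core spliceosome genes and 0 of 23 genes of cleavage, polyadenylation and nonsense-mediated decay. Against 1.76% of all tested genes, counts of 0 or 1 in lists of this size are close to the background. At an unadjusted p under 0.05 the counts were 1, 2, 0 and 1 (5.26%, 5.41%, 0% and 4.35%, against 12.1% of all tested genes, edgeR). KHDRBS1 encodes SAM68, an RNA-binding protein that regulates splicing (chr1:32013868-32060850), and had 10551 to 12063 counts. Its coding form NM_006559 took 90.7% and 92.6% in control and 84.8% and 89.5% in shCBX8-2, but 42.6% and 34% in shCBX8-1. NM_001271878, which lacks the 117-base exon printed above, took 2.89% and 3.84%, 7.26% and 4.32%, and 15% and 24.2% in the same order. The non-coding NR_073498 took 4.02% and 2.45%, 4.82% and 3.77%, and 32.6% and 27.4%. Both shCBX8-1 libraries thus stood apart from the other 4. The gene was called for shCBX8-1 against control (adjusted p = 0.000207) and for shCBX8-2 against shCBX8-1 (adjusted p = 0.000550), and not for shCBX8-2 against control (adjusted p = 0.579, all edgeR).

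SRRM1, a splicing coactivator, spread its 5053 to 6377 counts over 34 tested isoforms, the largest mean shift being 4.93 points in NM_001366597 (gene adjusted p = 0.000159, edgeR, lost without either control library with adjusted p up to 0.226). The muscleblind-like gene MBNL2 was not called (adjusted p = 0.0748, edgeR). Its NM_144778 took 1.45% and 0.716% in the controls, 47.4% and 62.4% in shCBX8-1, and 4.11% and 2.91% in shCBX8-2, a pattern like that of KHDRBS1 in that both shCBX8-1 libraries stood apart.

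In lists on cell identity and growth, 0 to 2 genes per list were called. Of 37 tested genes with known epithelial-mesenchymal splice forms, ECT2, an exchange factor of cytokinesis, was called (adjusted p = 0.0403, edgeR). Of 22 cell cycle genes, the mitotic kinase AURKA and the D-type cyclin CCND3 were called (adjusted p = 0.000113 and 0.0444, edgeR), 9.09% of the list against 1.76% of all tested genes. An unadjusted p under 0.05 was found for 4 genes of the first list (10.8%) and 2 of the second (9.09%). Over all tested genes that share was 12.1% (edgeR). ECT2 was lost in all 6 leave-one-out fits (adjusted p of 0.0546 to 0.306, edgeR) and CCND3 in 5 of them (0.0235 to 0.488, edgeR, the exception being the fit without shCBX8-2 replicate 2). The CCND3 isoform NM_001287427 took 7.90% and 6.11% in control and 12% to 25.7% in the 4 knockdown libraries. None was called among 29 tropomyosin and actin-binding genes, 24 apoptosis regulators, 26 metabolic genes, 22 lung cancer signalling genes and 9 keratin and squamous differentiation genes. A count of 0 in lists of this size is close to the 1.76% called of all tested genes. At an unadjusted p under 0.05 the counts were 7 (24.1%), 3 (12.5%), 5 (19.2%), 3 (13.6%) and 1 (11.1%), against 12.1% of all tested genes (edgeR).

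Single members of these lists had shares far apart between the groups without being called. The apoptosis initiator CASP9 had its non-coding NR_102732 at 35.2% and 35.6% in control and at 8.53%, 2.05%, 4.88% and 2.75% in the knockdown libraries (gene adjusted p = 0.108, edgeR), and the groups did not overlap. SMARCA4, the ATPase of the SWI/SNF remodeller, had NM_001374457 at 47.1% and 57.4% in control and at 4.38%, 1.64%, 0.447% and 0 in knockdown (gene adjusted p = 0.356, edgeR). DBN1, the actin-binding protein drebrin, had NM_004395 at 45.6% and 43.1% in control and at 98.6%, 98.9% and 98.8% in 3 knockdown libraries, but at 43.3% in shCBX8-2 replicate 2, the level of the controls. The retinoblastoma-like gene RBL1 had NM_001323281 at 84.1% and 13.7% in control and 0 in all knockdown libraries, so that the controls differed more from each other than the lower one did from knockdown.

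In the title of the study, CBX8 is said to repress CDKN2C and SCEL. CDKN2C, an inhibitor of CDK4 and CDK6 (chr1:50960745-50974634), was carried by NM_001262 in every library, at 97.5% and 96.8% in the controls, 98.6% and 97.5% in shCBX8-1, and 98.1% and 98.9% in shCBX8-2 (gene adjusted p = 0.687, edgeR). Its makeup thus stayed between 96.8% and 98.9%, while its level was 21.9 and 21.1 CPM in control and 38.0 to 43.3 in knockdown. SCEL, which encodes sciellin, a precursor of the cornified envelope (chr13:77535706-77645263), had 461 to 1664 counts. Its NM_144777 took 65.5% and 93.2% in the controls, 100% and 67.6% in shCBX8-1, and 49.6% and 49.9% in shCBX8-2, and NM_003843, which lacks a 60-base coding exon of NM_144777, took nearly all of the rest (gene adjusted p = 1, edgeR). The groups overlapped, and the sign of the mean difference turned without control replicate 2, to 1.27 points for NM_144777 and −2.78 points for NM_003843.

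In cytosolic ribosomal protein genes, 8 of 116 tested isoforms shifted by at least 10 points, against 6209 of all 26694 tested isoforms, and most shifts were smaller. The 116 isoforms, of 41 genes, included 38 whose groups did not overlap, 18 higher and 20 lower (32.8%, against 12.9% of all tested isoforms), in 19 genes. In genes with at least 5000 counts in every library, 15.2% of isoforms above 0 in all 6 libraries did not overlap. The median largest shift per ribosomal gene was 2.30 points, against 8.11 over all tested genes. The median ribosomal gene had 38197 counts in its lowest library, and the 116 isoforms were not limited to those above 0. The 32.8% and the 15.2% are thus not matched in depth or in filter. RPL28, a protein of the large subunit (chr19:55385932-55403342), had NM_000991 at 79.8% and 81.1% in control and at 87.7%, 87.8%, 87.4% and 87.4% in knockdown. RPL28 was the 1 gene of the list called (gene adjusted p = 0.0211, edgeR), lost without either control or either shCBX8-1 library, with adjusted p up to 0.226.

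RPS29, a protein of the small subunit, had NM_001032 at 76.5% and 73.9% in control and at 83.6%, 85.8%, 88.2% and 87.5% in knockdown. RPL37 had its coding NM_000997 at 33.2% and 23.4% in control and at 46.7%, 38.9%, 46.5% and 41.3% in knockdown, and its non-coding NR_159993 took the rest. In RPL8, NM_000973 was at 78.1% and 79.5% in control and at 82.9% to 87.1% in knockdown. RPS19 went the other way, with NM_001022 at 91.3% and 91.7% in control and 82.5% to 89.8% in knockdown. Ribosomal protein genes have many processed pseudogenes, and how reads were divided among such copies is not given in the sources used here.

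**Figure D3:**
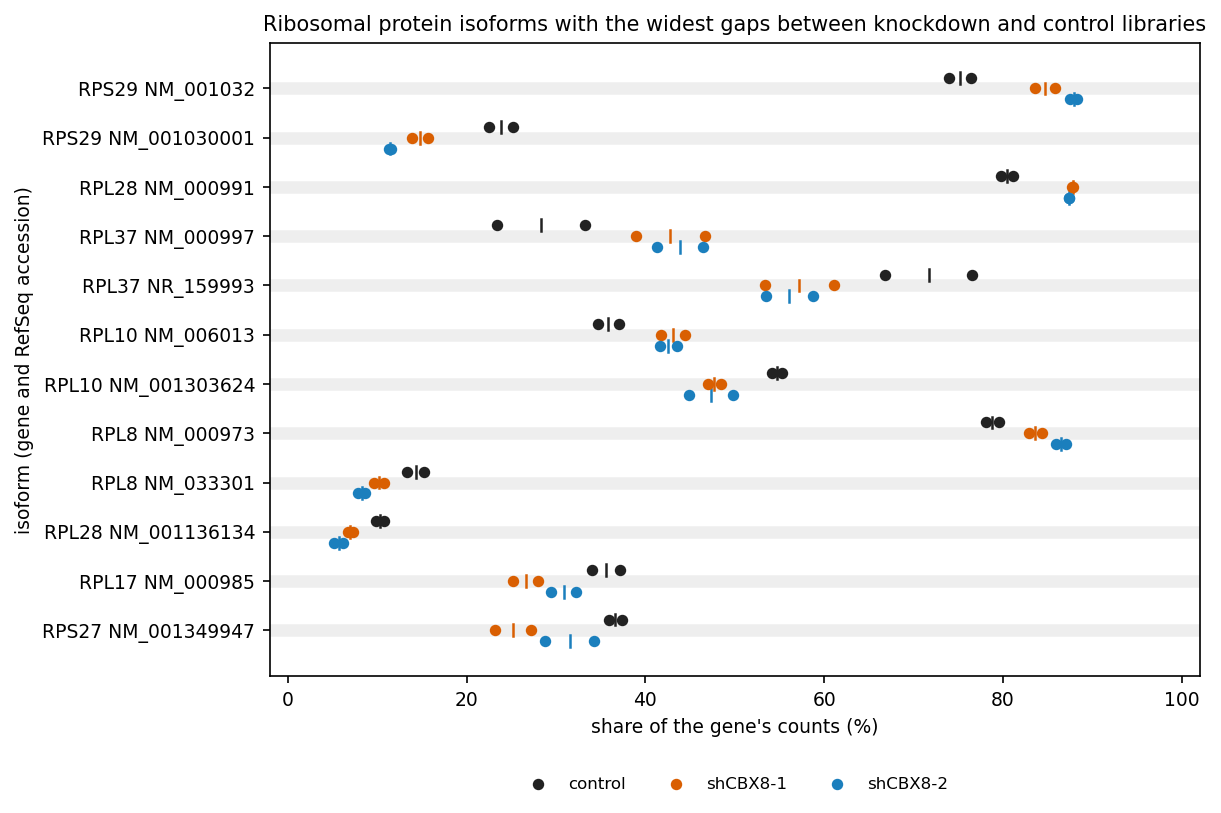
Share of the gene's counts (%, x axis) for the 12 ribosomal protein isoforms with the widest gaps between the knockdown and control libraries (y axis), with 1 point per library and a tick at each group's mean. The gaps are narrow, at most 7.13 points, in RPS29.

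Outside the lists, genes with high counts were searched for wide gaps, by a rule written after values were seen. In the 1516 tested genes with at least 5000 counts in every library, 4746 isoforms were above 0 in all 6 libraries. The groups did not overlap for 720 of them (15.2%), 357 higher and 363 lower, and lay at least 10 points apart for 30 (0.632%), in 24 genes. These 30 were chosen for their difference, so their values are a description. Comparisons of 2 libraries with 2 have fewer libraries to clear, and there the same gap held for 165 isoforms between shCBX8-1 and shCBX8-2, 135 between shCBX8-1 and control and 150 between shCBX8-2 and control. High counts did not make shares alike within a group. DIAPH1, an actin-nucleating formin, had NM_005219 at 54.6% in control replicate 1 and 0 in the other 5 libraries.

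VDAC2, a voltage-dependent anion channel of the outer mitochondrial membrane, had the widest gap of the 30. Its NM_003375 took 27.0% and 34.8% of the counts in the controls, 72.6% and 72.9% in shCBX8-1, and 86.3% and 84.1% in shCBX8-2. ATP6V0E2, a subunit of the vacuolar proton pump, had NM_145230 at 22% and 14.1% in control and at 72.3%, 58.2%, 57.4% and 56.0% in knockdown. The isoforms it displaced differed between the controls: NM_001367795 took 68.5% in replicate 1 and 0 in replicate 2, and NM_001367794 took 0 and 69.1%. CUL3, the scaffold of a family of ubiquitin ligases, had NM_003590 at 45.3% and 47.0% in control and at 90.9%, 67.3%, 81.6% and 79.2% in knockdown.

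Several of these genes differ in coding sequence between the isoforms. USP9X, a deubiquitinase, had NM_001039590, which holds the 48 bases printed above, at 35.9% and 31.5% in control and at 6.46%, 11.3%, 9.59% and 13.4% in knockdown. Its only other tested isoform, NM_001039591, took 86.6% to 93.5% in knockdown. FOXM1, a transcription factor of the G2 and M phases, had NM_021953, which holds the printed 45-base exon, at 77.1% and 71.7% in control and at 54.7%, 34.4%, 14.2% and 54.4% in knockdown. What replaced it varied, since NM_001243088 took 56.3% in shCBX8-2 replicate 1 and at most 4.85% in the other knockdown libraries. MET, the receptor of hepatocyte growth factor, had NM_000245, the form without the printed 54 bases, at 63.9% and 40.1% in control and at 82.3%, 89.0%, 98.0% and 80.7% in knockdown. NM_001127500, which holds them, took 14.4% and 51.5% in control and 14.3%, 1.15%, 0 and 16.2% in knockdown, so its groups overlapped.

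LMNA, with 57718 to 88605 counts, encodes lamins A and C of the nuclear envelope. The lamin A transcript NM_170707 took 58.2% and 50.4% in the controls, 70.4% and 70.0% in shCBX8-1, and 93.5% and 85.5% in shCBX8-2. The lamin C transcript NM_005572 took 22.8% and 23.4%, 10.0% and 10.2%, and 4.95% and 14.5%. The share of this lamin A transcript was thus higher and that of this lamin C transcript lower in all 4 knockdown libraries. Other LMNA transcripts were not added to either. IDH1, the cytosolic isocitrate dehydrogenase, had NM_005896 at 60.6% and 49.8% in control and at 76.2%, 82.5%, 74.9% and 91.6% in knockdown. NM_001282387, which has another first exon and the same coding exons, took 33.9% and 47.4% in control and 4.68% to 23.6% in knockdown. INF2, an actin-nucleating formin, had NM_022489 at 30.1% and 29.7% in control and at 45.5%, 41.0%, 47.0% and 44.8% in knockdown. USP9X was called at gene level (adjusted p = 0.0228, edgeR, lost without either control library or without shCBX8-2 replicate 1, adjusted p up to 0.117), and VDAC2, LMNA, FOXM1, MET, IDH1, CUL3, ATP6V0E2 and INF2 were not (adjusted p of 0.124 to 0.734).

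**Figure D4:**
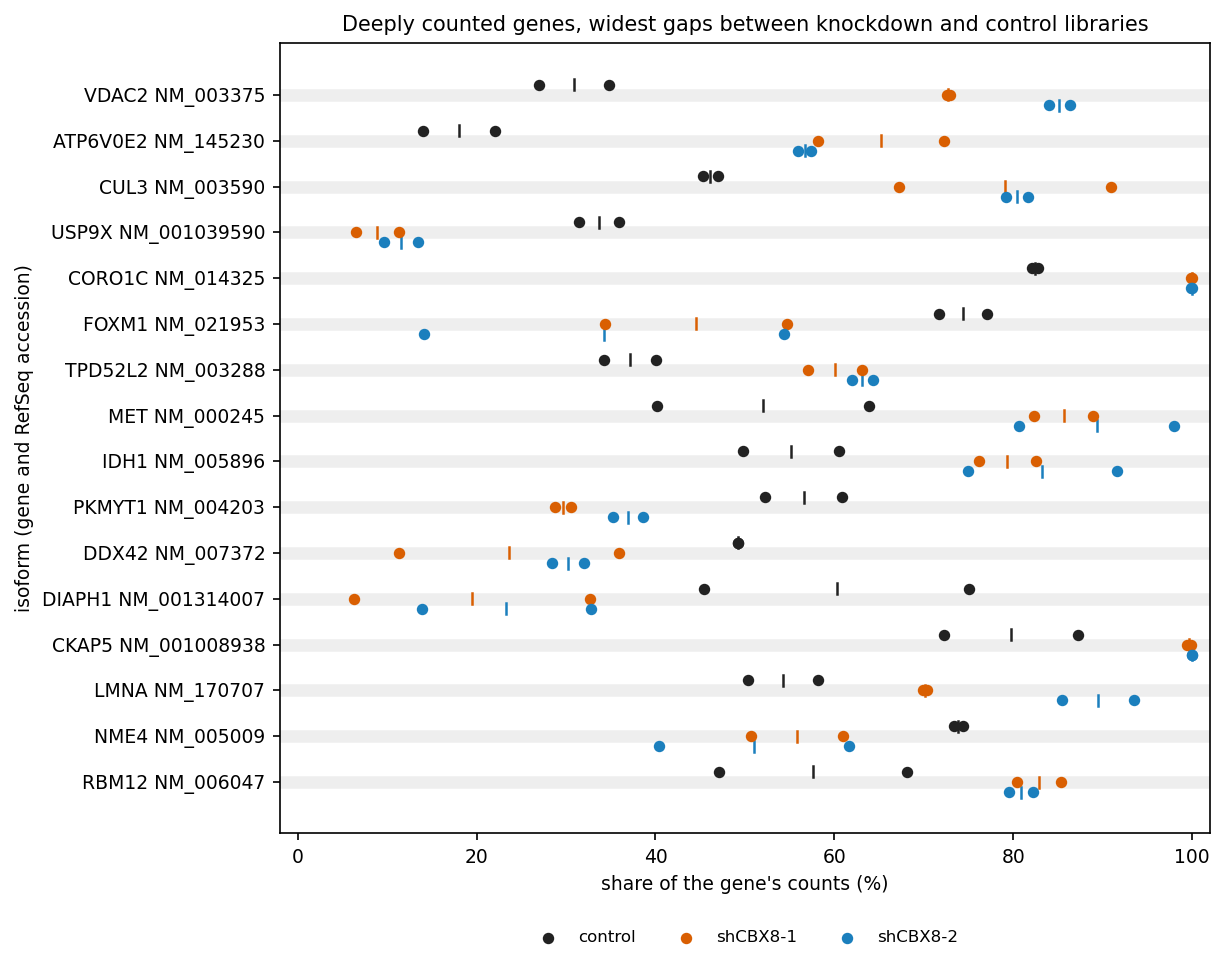
Share of the gene's counts (%, x axis) for the isoform with the widest gap in each of 16 genes with at least 5000 counts in every library (y axis; isoforms above 0 in all 6 libraries, accessions that occur once in the table), with 1 point per library and a tick at each group's mean. In VDAC2 the gap between the groups is 37.8 points, the widest of those drawn.

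The leading isoform of a gene, the one with the highest share, seldom changed in step with the knockdown. A change was complete, with 1 leader in both controls and another, the same, in all 4 knockdown libraries, in 44 of 8156 genes (0.539%). The groups did not overlap for either leader in 32 of the 44, and 7 were called at gene level. Over all tested features, 12.9% of isoforms did not overlap and 1.76% of genes were called. The 44 were picked for a difference between the groups, so these counts follow in part from the rule and lend it no support. Leaving out 1 library eases the rule, and the count was then 246 or 231 without a control and 81 to 90 without a knockdown library. The leader was the same in all 6 libraries in 4952 genes (60.7%). It differed between the 2 control libraries in 1625 genes (19.9%), between the 2 shCBX8-1 libraries in 1645 and between the 2 shCBX8-2 libraries in 1702. Where both libraries of each group had 1 leader, it differed between control and shCBX8-1 in 202 genes, between control and shCBX8-2 in 212 and between the hairpins in 225. In 26 of the 44 genes both leaders had separate GENCODE links, and their coding exons differed in 17, were the same in 7 and were absent from at least 1 transcript in 2.

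After STAT4, ZNF827 and SLC45A4, the largest changes of leader were in UVSSA, FYB1 and SDCBP2-AS1. UVSSA, a factor of transcription-coupled DNA repair (chr4:1342011-1395989), had NM_001317935 at 54.1% and 99.6% in control and 0 in knockdown, where NM_020894, with the same coding exons and an end 9745 bases further on, was at 100% (gene adjusted p = 0.0409, edgeR). FYB1, an adaptor protein of T cells and platelets (chr5:39105252-39274528), had NM_001349333 at 0 in control and at 92.1%, 72.3%, 81.6% and 100% in knockdown, on 376 to 1305 counts (gene adjusted p = 0.00718, edgeR). SDCBP2-AS1, a non-coding gene with 204 to 375 counts, went from NR_040048 to NR_040047, which took 1.30% and 31.9% in control and 60.0% to 90.7% in knockdown (gene adjusted p = 0.0254, edgeR). Without 1 shCBX8-1 library none of the 3 was called, with adjusted p up to 0.106, 0.0866 and 0.131 over the leave-one-out fits (edgeR). UVSSA and SDCBP2-AS1 were also lost without either shCBX8-2 library.

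No fewer isoforms and genes were called between the hairpins as between either hairpin and control. For shCBX8-1 against control 8 isoforms were called (0.03%; 3 higher, 0.0112%, and 5 lower, 0.0187%) and 107 genes (1.45%), and for shCBX8-2 against control 12 isoforms (0.045%; 5 higher, 0.0187%, and 7 lower, 0.0262%) and 123 genes (1.67%). For shCBX8-2 against shCBX8-1 the counts were 16 isoforms (0.0599%; 8 higher, 8 lower) and 138 genes (1.87%, edgeR). These comparisons share libraries. Of the 130 genes called for both hairpins together against control, 78 were called for shCBX8-1, 79 for shCBX8-2 and 43 for both.

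Of the isoforms called between the hairpins, 3 of those with the widest rise in shCBX8-2 are described here. AOPEP, an aminopeptidase (chr9:94726699-95150224), had NM_032823 at 55.7% and 28.7% in shCBX8-2 and at 0 in the other 4 libraries (adjusted p = 0.00770, edgeR). HEXA, a subunit of lysosomal hexosaminidase (chr15:72340924-72376014), had NM_001318825 at 10.3% and 47.2% in the controls, 0.324% and 0.138% in shCBX8-1, and 48.4% and 40.5% in shCBX8-2 (adjusted p = 0.00974, edgeR). SEZ6L2 had NM_001114100 at 18.9% and 8.36% in control, 0 in shCBX8-1, and 24.2% and 28.8% in shCBX8-2 (adjusted p = 0.0183, edgeR). In HEXA and SEZ6L2 it was thus shCBX8-1 that stood below both other groups.

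The 4 isoforms named by the rule as lower in shCBX8-2 were all at 0 there. AURKA, the kinase of spindle assembly (chr20:56369390-56392215), had NM_198435 at 13.2% and 17.7% in control and at 13.1% and 16.8% in shCBX8-1 (adjusted p = 9.21e-05, edgeR). SETD2, the methyltransferase of histone H3 lysine 36 (chr3:47016436-47164840), had NM_014159 at 44.0% and 49.8% in control and at 65.7% and 17.4% in shCBX8-1 (adjusted p = 0.0236, edgeR). PITPNB, a phosphatidylinositol transfer protein, had NM_001284278 at 45.0% and 32.6% in control and at 37.7% and 11.5% in shCBX8-1 (adjusted p = 0.0239, edgeR). LTB4R, a leukotriene B4 receptor, had NM_001143919 at 0 in control and at 33.1% and 26.8% in shCBX8-1 (adjusted p = 0.0255, edgeR). AURKA, SETD2 and PITPNB were also among the 23 isoforms called for knockdown against control. In AURKA the shCBX8-1 libraries lay within or just under the range of the controls.

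Each hairpin call followed here was lost in some of the leave-one-out fits. Most of the 16 calls, that of AURKA among them, were not followed in this way. LTB4R and PITPNB were called in none of the 6 leave-one-out fits for the hairpin difference (adjusted p of 0.0610 to 0.180 and 0.0519 to 0.157, edgeR), HEXA and SETD2 in 2 (up to 0.166 and 0.160), AOPEP in 3 (up to 0.0788) and SEZ6L2 in 4 (up to 0.166). HEXA, AOPEP and SEZ6L2 were lost without either shCBX8-1 library, HEXA also without either shCBX8-2 library and AOPEP without shCBX8-2 replicate 1. SETD2 was lost without either control or either shCBX8-2 library. The knockdown call of AURKA was lost without either shCBX8-1 library (adjusted p up to 0.0695, edgeR).

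**Figure D5:**
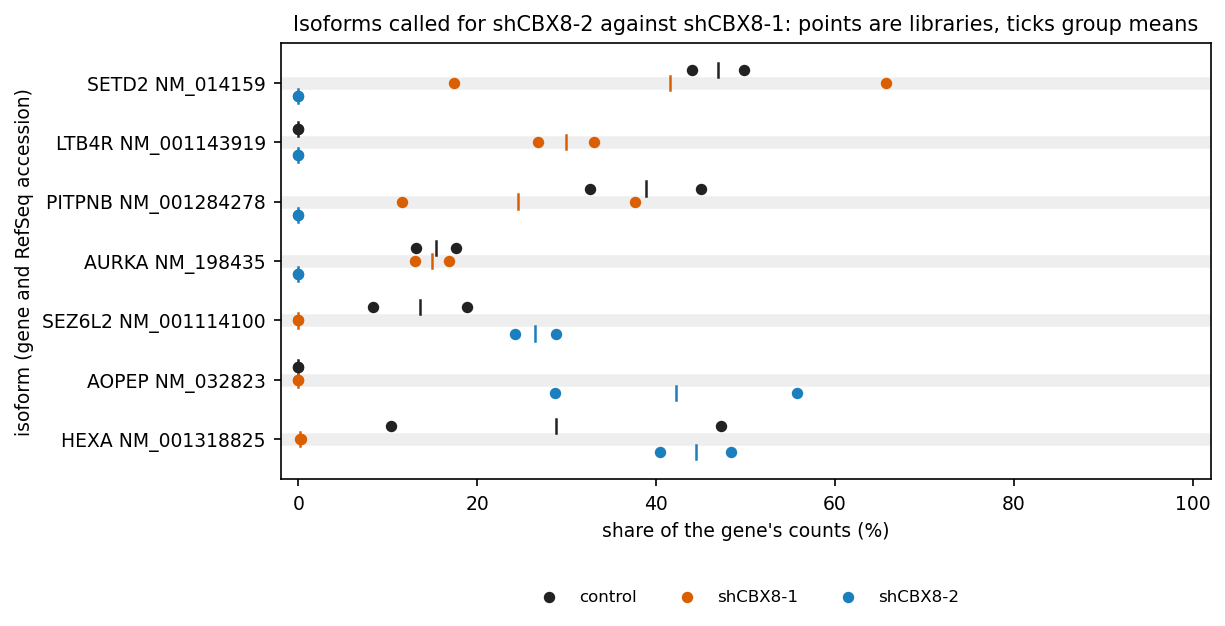
Share of the gene's counts (%, x axis) for 7 isoforms called for shCBX8-2 against shCBX8-1 (y axis), with 1 point per library and a tick at each group's mean. AURKA NM_198435 is at 0 in both shCBX8-2 libraries and between 13.1% and 17.7% in the other 4.

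The share of counts on non-coding transcripts (NR accessions) of member genes was 4.12% and 4.08% in the controls, 4.09% and 3.96% in shCBX8-1, and 3.84% and 3.98% in shCBX8-2. The control mean was 4.10% ± 0.0296 (SD, n = 2) and the knockdown mean 3.97% ± 0.102 (SD, n = 4), a difference of −0.130 points. The groups overlapped, and the exact two-sided permutation test over the 15 splits gave p = 0.267, where the smallest p it can give is 0.133.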

How the data were processed

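RNA from A549 cells was sequenced in 6 libraries, 2 per group. Per the submitters' processing notes, HISAT2 2.2.1, StringTie 2.2.1, DESeq2 1.34.0 and hg38 were used, in roles that the notes do not give. The authors deposited whole-number estimated counts per RefSeq transcript, so a share of counts is weighted by transcript length. Totals were 64197784 to 67169537 counts. The members and gene lists were chosen with earlier results of these data known.

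The 84787 rows were matched to genes through RefSeq (GRCh38.p14; 83963 rows) or GENCODE 29 (368), with 456 unmatched. The 12094 rows that repeat an accession were merged with it. Shares were tested with edgeR 4.0.16 (glmQLFit, diffSpliceDGE, TMM, a 3-group design, 3 residual degrees of freedom) over 26694 isoforms. The contrast set the mean of both knockdown groups against control, and differences of share are in percentage points. P-values were Benjamini-Hochberg adjusted over all tested isoforms or genes, and calls had adjusted p under 0.05. A count of 0 was given the limit of 3 counts. The code was tested on simulated data.

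Named were up to 12 called isoforms in each direction, 1 per gene, with the same sign in both hairpin groups and no overlap. Up to 4 genes per list had the smallest p, 4 isoforms in each direction were the largest between hairpins (1 is not reported here), and up to 6 genes had the largest changes of leader. Genes with at least 5000 counts, the other ribosomal proteins and the isoforms named beside these were picked after their values were seen. Alternatives used DESeq2 1.42.0, limma 3.58.1, other filters and each library left out. R 4.3.3, Python 3.11.15 and pandas 2.3.3 were used.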

Additional observations from a re-analysis of the deposited data

Results flagged for a closer look

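The share of 7 of the named isoforms differed between the hairpins by a test of that difference (edgeR's diffSpliceDGE, adjusted p under 0.05). In shCBX8-2 minus shCBX8-1, the difference was 44.2 percentage points for HEXA NM_001318825, 42.2 for AOPEP NM_032823 and 26.5 for SEZ6L2 NM_001114100. It was −41.6 for SETD2 NM_014159, −29.9 for LTB4R NM_001143919, −24.6 for PITPNB NM_001284278 and −14.9 for AURKA NM_198435.

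In 10 of the 68 named isoforms whose knockdown libraries differed at all, 1 of the 4 knockdown libraries stood apart from the other 3. The rate that chance gives, about 1 of 20 groups, holds for values spread alike about a common mean. These are bounded shares from both hairpins, some of them tied, so the 10 cannot be set against that rate. The share of that library was 21.9% for PCGF2 NM_007144, 43.3% for DBN1 NM_004395, 46.9% for DSP NM_001008844, 14.8% for EFTUD2 NM_001258354 and 64.3% for FGFR1 NM_001354368. It was 88.7% for RALGPS2 NM_001286247, 17.8% for SREK1 NM_001077199, 4.07% for SRRM1 NM_001366597, 99.8% for UPF2 NM_015542 and 0.0170% for CORO1C NM_001276471.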

How the results depend on the processing

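The number of called isoforms depended on the tool. For knockdown against control, edgeR called 23 isoforms, 19 with at least 10 points, and 130 genes. A DESeq2 Wald test gave 1178, 719 and 758, limma's diffSplice 65, 55 and 41, and limma on arcsine shares, added after seeing the data, 8, 8 and 9. Isoforms above 0 in all 6 libraries, also added then, gave 3, 1 and 54. The gene counts of edgeR and limma's diffSplice are from gene-level F tests. Those of DESeq2 and arcsine shares are from each gene's isoform p-values combined by Simes' method, so the gene counts are not like for like. The split of higher to lower calls was 1 to 22 with edgeR, 538 to 640 with DESeq2, 30 to 35 with limma's diffSplice, 5 to 19 with the 4 knockdown libraries as 1 group and 6 to 21 with a mean share of at least 5%. Of the 23 isoforms, DESeq2 called 23, limma's diffSplice 9, arcsine shares 3 and the set above 0 in all libraries 0. With the knockdown libraries as 1 group, 69 genes were called. The cause of these differences was not tested.

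For shCBX8-1 against control the 8 calls became 1259 (DESeq2), 35 (limma's diffSplice), 15 (arcsine shares) and 4 (no repeated accessions). For shCBX8-2 against control the 12 became 1292 and 22 (DESeq2, limma's diffSplice). For shCBX8-2 against shCBX8-1 the 16 became 1396, 68, 10 and 27 (DESeq2, limma's diffSplice, arcsine shares, above 0 in all 6 libraries). With the replicate number as a block, the counts were 8 for knockdown against control (5 with at least 10 points), 2 for shCBX8-1, 4 for shCBX8-2 and 4 between the hairpins. Deviations of same-numbered libraries correlated at −0.0142, 0.00340 and −0.00190 over all tested isoforms, so no pairing shared by the isoforms as a whole was seen. A pairing that concerns only part of them was not tested.

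Leaving out 1 library gave 10 to 43 isoforms for knockdown against control, 10 to 38 with at least 10 points, 176 to 288 genes, 6 to 39 isoforms for shCBX8-1, 5 to 22 for shCBX8-2, 15 to 25 between the hairpins and 81 to 246 changes of leader. A group left with 1 library was assumed to vary like the others. The sign of the difference turned for 6 isoforms, none of them called: EVPL NM_001320747 (−36.7 to 0.198 points), HNRNPK NM_031263 (−7.03 to 43.1), SCEL NM_003843 (−2.78 to 25.0) and NM_144777 (−26.5 to 1.27), UPF2 NM_015542 (−0.0471 to 44.4) and DSP NM_001008844 (−1.19 to 15.3). The table holds no model accessions, so the alternative without them was not run. In genes with under 1000 counts, shares differed between libraries of a group by a median of 12.1 to 14.5 points, which limits what can be detected there.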
